A study of Drosophila melanogaster with 2 samples.

Results

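The Jonah and trypsin serine protease genes belong to the S1 serine proteases and are best known for digestive enzymes of the fly gut. Members were the genes whose symbol starts with Jon and a digit, ends with Try, starts with Ser and a digit, or is yip7, which gave 32 of 17301 genes. They comprise 16 Jonah genes, 11 trypsins, 4 Ser genes and yip7. The group was chosen by the measured FPKM differences between the 2 libraries described here, since results of these data were known when it was proposed. Those differences are therefore given as a description, with no test.

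RNA of pooled Drosophila melanogaster embryos, aged 0 to 16 h and from flies kept at 25 °C, was sequenced after poly(A) selection as 1 library per genotype. One parent of every embryo came from a driver line that carries y1 w*, the GAL4 source P{en2.4-GAL4}e22c and, on another chromosome, P{tGPH}4 over the balancer TM3 with Ser1. The labels say that this line switches transgenes on early in development. In the library labelled knockdown the other parent was y1 v1 with P{TRiP.JF02125}attP2, a transgene for RNA interference against Lim3, a LIM-homeodomain gene known for its role in motor neurons. In the control library the other parent was y1 v1 and carried P{y+t7.7=CaryP}attP2 instead. Embryos of both pools thus share the driver, and the genotypes listed for both also share P{tGPH}4/+. Ser1 is an allele of Serrate, a Notch ligand gene, and not one of the Ser proteases. Each library is a single pool of embryos of mixed stages, so the spread between pools is unknown and no p-value is printed.

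S1 serine proteases cut peptide bonds with a histidine, aspartate and serine that act together in the active site, and most are made as inactive precursors that are switched on by a cut near their start. Trypsins cut after lysine or arginine. Jonah genes were named for their expression in the gut and encode chymotrypsin-like enzymes that larvae and adults secrete into the midgut lumen. The embryo does not feed, and its midgut forms around the yolk and differentiates late in embryogenesis. In pooled whole embryos, fewer cells that express a gene and less RNA per cell cannot be told apart.

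Lim3 itself (FBgn0002023) had 18.5 FPKM in the library labelled knockdown, against 5.81 FPKM in the control library, which goes against the label. Why its value was higher there was not tested. FPKM is the number of fragments per 1000 nt of transcript and 1000000 mapped fragments. Values of a gene are summed over its transcripts. Read from the smallest values of genes as long as the members (700 to 1100 nt), the depth was about 29770000 fragments in the library labelled knockdown, against 21490000 in the control library. The longest genes used gave 33840000 and 24520000. Fragments estimated for each gene with the first pair of depths summed to 36404696 and 29878362 over all genes. These sums exceed the depths, and by unequal shares, so fragment numbers and the intervals from them are approximate. The 95% intervals of ratios below use these estimated fragments and cover counting error only. Late embryonic genes were abundant in both libraries, with the muscle actin gene Act57B at 7752 FPKM in the library labelled knockdown, against 7375 FPKM in the control library.

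The members are compact genes in tandem groups. Their longest transcripts have 810 to 1452 nt (median 902.5), and in the Release 6 annotation 25 have 1 exon, 5 have 2 and 2 have 3. The 11 trypsins lie together on 2R from 7224345 to 7245042, a span of 20.7 kb, with CG30031, CG30025 and CG13202 among them. Jon65Ai to Jon65Aiv and yip7 lie on 3L from 6028316 to 6047543. The 3 genes of the 25B group lie on 2L from 4949941 to 4955144, the 99C group on 3R from 25747938 to 25751911, the 99F pair on 3R from 26312738 to 26315617 and the 66C pair on 3L from 8384640 to 8386749. These are the files' own coordinates, which are not those of Release 6, and their build is not stated. Jon44E, Jon74E, Ser6, Ser7, Ser8 and Ser12 stand apart from the other members. Jon44E, deltaTry and Ser8 overlap a gene on the opposite strand in Release 6 (CG8586, CG13202 and ATP8A), and whether the authors' counting used strand is not given in the sources used here.

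The family was expressed at a low level and unevenly. Its summed level was 171 FPKM in the library labelled knockdown, against 113 FPKM in the control library, a ratio of 1.52 (1.44 to 1.60). Jon65Aiii alone made up 26.3% of it in the library labelled knockdown, against 36.8% in the control library, and it ranked first in both. The 5 most abundant members held 69.1% and 77.9%. Only 17 of the 32 members reached 1 FPKM in the library labelled knockdown, against 11 in the control library, and all of those 11 were among the 17. The other 15 members stayed below 1 FPKM in both. Over all 17301 genes, 10359 reached that level in the library labelled knockdown, against 10301 in the control library.

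**Figure D1:**
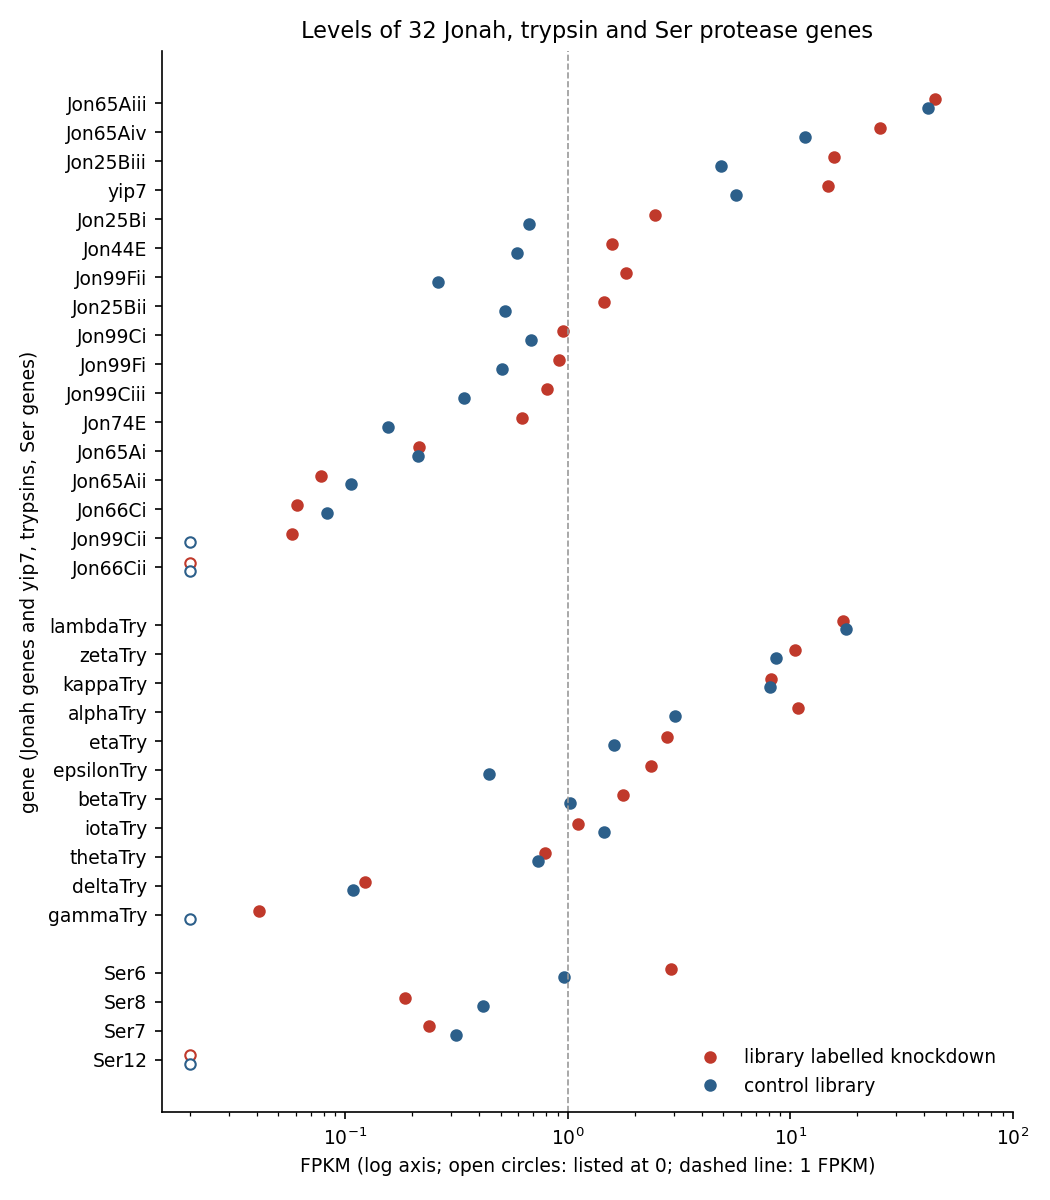
FPKM of each of the 32 genes (log axis) in the library labelled knockdown, against the control library, with Jonah genes and yip7 at the top, trypsins in the middle and Ser genes at the bottom, 1 library per group. Open circles are genes listed at 0. Jon65Aiii (44.9 and 41.4 FPKM) and lambdaTry (17.3 and 17.9 FPKM) lie almost at the same level in both libraries, while alphaTry (10.8 and 3.05 FPKM) and Jon25Biii (15.7 and 4.88 FPKM) lie apart.

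The size rule was a log2 difference of at least 1 after adding 1 FPKM to each value. By it, 7 of the 17 members that reached 1 FPKM in either library were higher in the library labelled knockdown, and 0 were lower. Over all 10576 genes tested this way, 1.02% were higher (108 genes) and 1.37% lower (145 genes). When the libraries were rescaled to an equal sum, the split over all genes was 175 higher and 109 lower, and that of the members 8 higher and 0 lower. Of the 7 members, 3 reached 1 FPKM only in the library labelled knockdown, so they were tested only because of their level there. Among the 11 members at 1 FPKM or more in both libraries, 4 were past the rule, all higher. The share over all genes at that level was 0.417% higher and 0.793% lower. At 5 FPKM or more in either library the same 4 members were higher, where 0.879% of all genes were higher and 1.34% lower. Tested genes of 700 to 1100 nt were 1.24% higher and 0.828% lower, and those of them with a mean of 1 to 50 FPKM 1.97% higher and 1.2% lower. Because the members were proposed with these differences in view, nothing is read from this excess. Over all 32 members, 24 had a larger value in the library labelled knockdown, 6 a smaller one and 2 were at 0 in both, and the median log2 difference was 0.23. Over all genes it was 0. Over the 17 tested members it was 0.70, and over all tested genes -0.04, but 6 of the 17 passed the filter only through the library labelled knockdown. Over the 11 that passed in both it was 0.46, against -0.05 over all such genes.

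The Jonah genes of 25B were all higher in the library labelled knockdown. Jon25Biii, the most abundant of them, had 15.7 FPKM in the library labelled knockdown, against 4.88 FPKM in the control library, a ratio of 3.21 (2.54 to 4.10) and a log2 difference of 1.5 on about 386 and 87 fragments. Jon25Bi was at 2.48 and 0.669 FPKM, a ratio of 3.70 (2.0 to 7.44) and a log2 difference of 1.06. Jon25Bii was at 1.46 and 0.520 FPKM, a ratio of 2.81 (1.38 to 6.33), and its log2 difference of 0.70 missed the rule. The intervals of the 3 ratios overlap although the levels of the genes differ widely. The summed level of the group was 19.6 and 6.07 FPKM, a ratio of 3.23 (2.62 to 4.02).

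Jon25Bii has a pair of annotated transcripts of 884 and 894 nt. In the library labelled knockdown the shorter held nearly all of its level, at 1.46 and 0.00166 FPKM for the shorter and the longer. In the control library the longer held it, at 0.000350 FPKM for the shorter and 0.520 FPKM for the longer. Transcripts this alike share nearly all their fragments, and the division between them was an estimate of the authors' software, so only the sum is used here.

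The 65A group was divided. yip7, whose product is a Jonah-like protein, had 14.8 FPKM in the library labelled knockdown, against 5.73 FPKM in the control library, a ratio of 2.58 (2.09 to 3.22) and a log2 difference of 1.23. Jon65Aiv was at 25.2 and 11.7 FPKM, a ratio of 2.16 (1.86 to 2.52) and a log2 difference of 1.05. Jon65Aiii, at 44.9 and 41.4 FPKM, had a ratio of 1.08 (0.990 to 1.19), an interval that holds 1 and lies below those of yip7 and Jon65Aiv. The next gene, Jon65Aii, was close to silent at 0.0775 and 0.107 FPKM, about 2 fragments in each library. Jon65Ai was at 0.214 and 0.212 FPKM, on about 5 and 4 fragments. Within 1 gene group of 19.2 kb, levels therefore ran from about 2 fragments to the highest of the family.

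The other Jonah genes were at low level. Jon99Fii had 1.83 FPKM in the library labelled knockdown, against 0.262 FPKM in the control library, a ratio of 7.0 (2.84 to 22.1) and a log2 difference of 1.17, with about 5 fragments in the control library. Its partner Jon99Fi was at 0.909 and 0.507 FPKM (ratio 1.79, 0.837 to 4.16). Jon44E was at 1.58 and 0.593 FPKM, a ratio of 2.67 (1.38 to 5.62) and a log2 difference of 0.70. Below 1 FPKM, Jon74E at 0.621 and 0.155 FPKM (ratio 3.99, 1.5 to 13.6) and Jon99Ciii at 0.803 and 0.340 FPKM (ratio 2.36, 1.07 to 5.80) had intervals above 1, and Jon99Ci was at 0.955 and 0.684 FPKM (ratio 1.40, 0.695 to 2.94). Jon99Cii had 0.0579 FPKM in the library labelled knockdown, about 1 fragment, and listed at 0 in the control library. Jon99Cii and Jon99Ciii are close copies, so fragments may be divided between them and the single values are uncertain. Jon66Ci was at 0.0610 and 0.0832 FPKM, about 2 and 1 fragments, and Jon66Cii was listed at 0 in both libraries.

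The trypsins differed from gene to gene. The 3 genes at the left end of the group had ratios nearer to 1 than alphaTry, the only other trypsin above 5 FPKM in either library. lambdaTry had 17.3 FPKM in the library labelled knockdown, against 17.9 FPKM in the control library, a ratio of 0.969 (0.845 to 1.11), and its log2 difference of -0.04 turned to 0.22 when the libraries were rescaled to an equal sum. kappaTry was at 8.16 and 8.11 FPKM, a ratio of 1.01 (0.819 to 1.24). The RefSeq gene table also lists kappaTry under a serine protease homologue number, as it does yip7, gammaTry and Jon99Fi. zetaTry was at 10.5 and 8.63 FPKM, a ratio of 1.21 (1.00 to 1.47). Summed, these 3 genes were at 35.9 and 34.6 FPKM, a ratio of 1.04 (0.942 to 1.14).

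Farther along, etaTry had 2.78 FPKM in the library labelled knockdown, against 1.62 FPKM in the control library, a ratio of 1.72 (1.12 to 2.69) and a log2 difference of 0.53. thetaTry was below 1 FPKM at 0.794 and 0.735 FPKM, a ratio of 1.08 (0.556 to 2.15). The next genes stood apart. alphaTry, a major trypsin of the feeding gut, was at 10.8 and 3.05 FPKM, a ratio of 3.54 (2.65 to 4.80) and a log2 difference of 1.54 on about 276 and 56 fragments. epsilonTry beside it was at 2.37 and 0.441 FPKM, a ratio of 5.36 (2.54 to 13.1) and a log2 difference of 1.22 with about 8 fragments in the control library. Together they were at 13.2 and 3.49 FPKM, a ratio of 3.77 (2.88 to 5.01). This pair and the 3 genes at the left end were grouped with their ratios in view, so the intervals of the sums are not compared. In the library labelled knockdown alphaTry and zetaTry were at 10.8 and 10.5 FPKM, against 3.05 and 8.63 FPKM in the control library.

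The right end of the group was low. betaTry had 1.77 FPKM in the library labelled knockdown, against 1.02 FPKM in the control library, a ratio of 1.74 (0.978 to 3.21). gammaTry was at 0.0411 FPKM, about 1 fragment, and listed at 0 in the control library, and deltaTry was at 0.123 and 0.108 FPKM, about 3 and 2 fragments. gammaTry and deltaTry are close copies whose single values are uncertain, and neither exceeds 3 fragments. iotaTry was at 1.11 and 1.45 FPKM, a ratio of 0.769 (0.431 to 1.38), the lowest ratio among the 17 members at 1 FPKM or more. The trypsins CG30031 and CG30025 within the group, which carry no family name, were listed at 0 in both libraries.

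**Figure D2:**
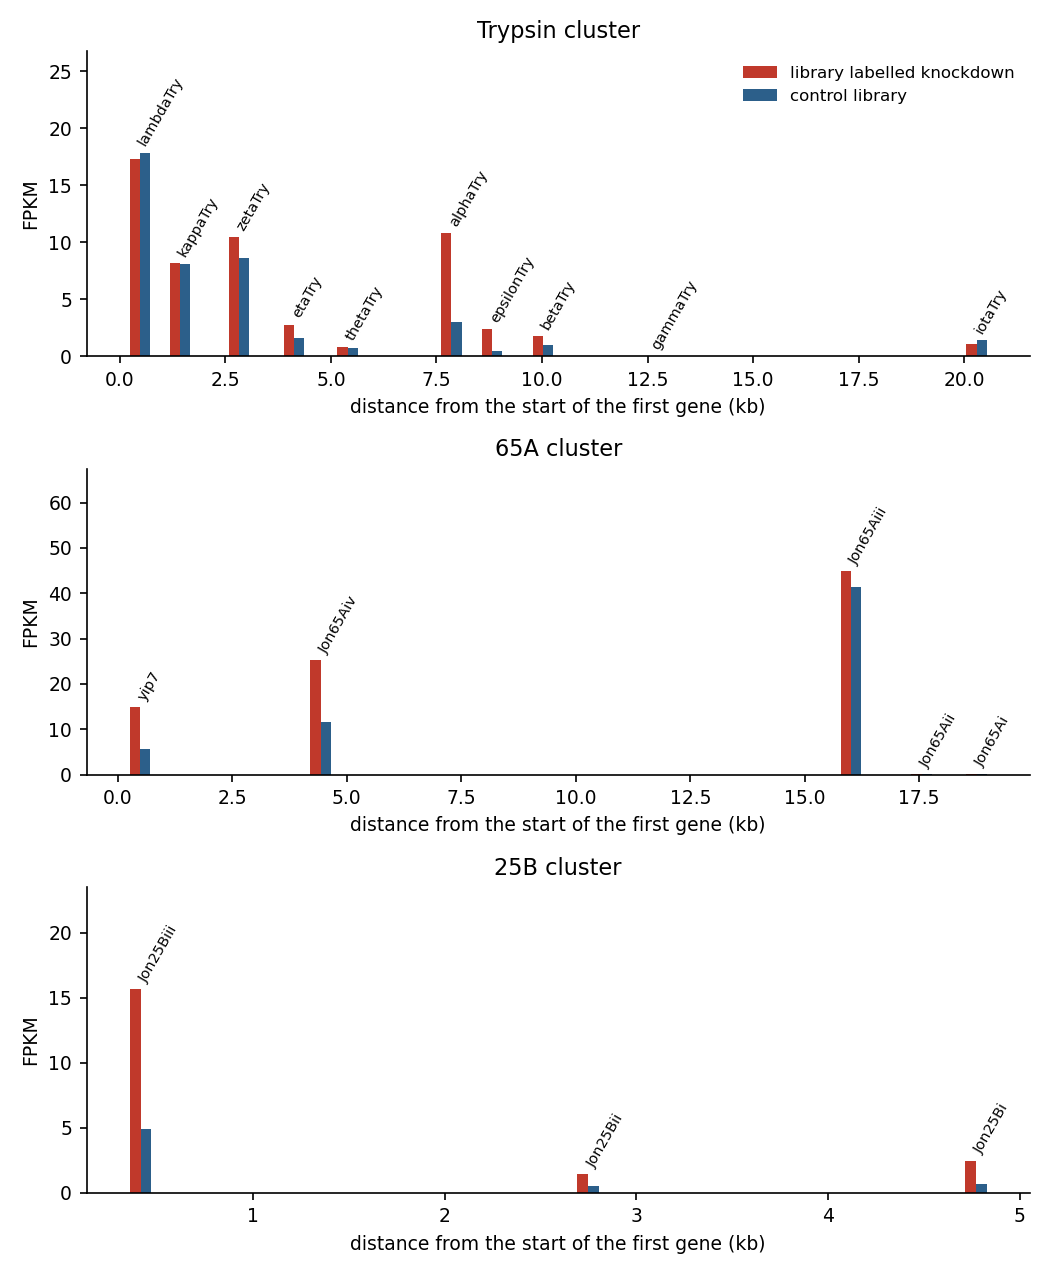
FPKM in the library labelled knockdown, against the control library (bars, from 0) against the distance from the start of the first gene in kb, for the trypsin group, the 65A group and the 25B group, with 1 library per group. deltaTry is not drawn because the files give no span of its own for it. In the trypsin group the bars are closer at lambdaTry, kappaTry and zetaTry than at alphaTry and epsilonTry, and in the 65A group closer at Jon65Aiii than at yip7 and Jon65Aiv.

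Of the Ser genes only Ser6 reached 1 FPKM. Ser6 had 2.92 FPKM in the library labelled knockdown, against 0.958 FPKM in the control library, a ratio of 3.04 (1.82 to 5.36). Its log2 difference of 0.9999 was just outside the rule, and Jon65Aiv at 1.05 and Jon25Bi at 1.06 were just inside it. Ser7 was at 0.238 and 0.315 FPKM (ratio 0.754, 0.279 to 2.05) and Ser8 at 0.186 and 0.416 FPKM (ratio 0.446, 0.108 to 1.62). Both had smaller values in the library labelled knockdown, and both intervals hold 1. Ser12 was listed at 0 in both libraries.

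The ratio of the sums depended on which members entered it. Without Jon65Aiii the summed level was 126 FPKM in the library labelled knockdown, against 71.1 FPKM in the control library, a ratio of 1.77 (1.66 to 1.88). Without lambdaTry as well it was 108 and 53.3 FPKM, a ratio of 2.04 (1.90 to 2.19), but this second removal was not planned. Both genes have ratios below that of the whole family, so leaving them out had to raise the ratio. By a plain ratio of at least 2, chosen after the data were seen, 10 members were higher and 0 lower, where 1.78% of all tested genes were higher and 2.1% lower. With 5 FPKM added in place of 1, only Jon25Biii passed the rule (1.07), and alphaTry was at 0.97.

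**Figure D3:**
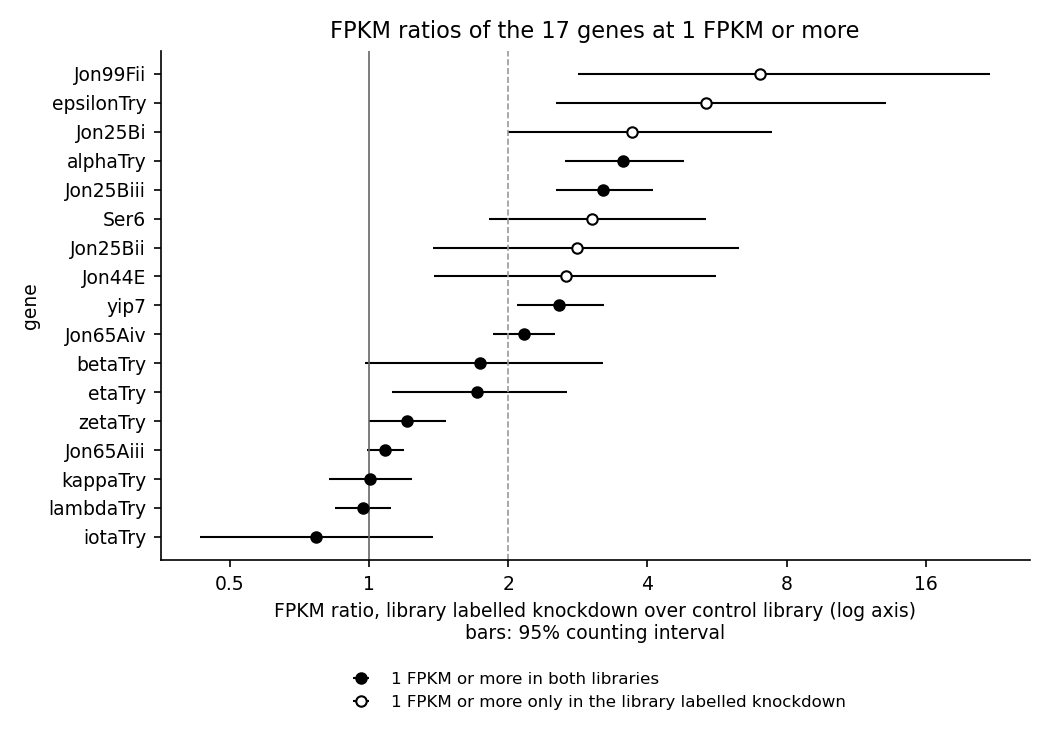
FPKM ratio of the library labelled knockdown over the control library (log axis), though Lim3 goes against that label, for the 17 genes that reached 1 FPKM in either library, ordered by ratio. Points are the ratios, bars are 95% intervals for counting error only, filled points are genes that reached 1 FPKM in both and open points genes at that level only in the library labelled knockdown. Jon99Fii has the highest ratio (7.0, 2.84 to 22.1) and iotaTry the lowest (0.769, 0.431 to 1.38).

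Genes beside the members were compared by the same rule. Of 56 other genes within 4 kb of a member's locus, 26 were tested. Of these, 11 lay above 0, against 43.5% over all tested genes, and the median was -0.03 (range -0.38 to 0.71). None was past the size rule in either direction, where 1.02% of all tested genes were higher and 1.37% lower. At such shares a set of 26 genes can easily hold none. For 4 members the files give a span that is not the gene's own, so this window is wider there. The highest of these neighbours, CG1304, is itself a serine protease gene next to Ser6. It had 2.49 FPKM in the library labelled knockdown, against 1.13 FPKM in the control library, a ratio of 2.20 (1.34 to 3.76).

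Other serine protease genes gave a wider base for comparison. The RefSeq gene table gives 221 further genes a serine protease catalogue number, of which 89 were tested. Of these, 59 lay above 0 and 30 below, 1 was past the size rule, and the median was 0.13. Over all tested genes 43.5% lay above 0, the share to set beside this count and those of the lists below, and the median was -0.04. By the size rule 1.02% of them were higher and 1.37% lower. The 35 tested genes of the catalogue with transcripts of at most 1200 nt, about the members' length, had a median of 0.23, with 29 above 0. Of these 35, 3 passed the filter only through the library labelled knockdown and 0 only through the control library. For the 89 these counts were 8 and 2. The members in the next sentence were held to a stricter filter, so the counts are not alike. The 11 members that reached 1 FPKM in both libraries had a median of 0.46 with 9 above 0, while the 1355 genes of 700 to 1100 nt at that level had a median of -0.15, with 32.8% above 0. No test of these differences was possible with 1 library per group.

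The gene past the rule was CG34437, at 14.3 FPKM in the library labelled knockdown, against 4.14 FPKM in the control library, a ratio of 3.46 (2.70 to 4.47). That is close to the values of Jon25Biii and alphaTry. The next highest at 5 FPKM or more were CG10472 at 7.36 and 4.56 FPKM (0.59), CG4653 at 9.01 and 6.69 FPKM (0.38), scaf at 13.2 and 10.3 FPKM (0.33) and CG11911 at 5.54 and 4.23 FPKM (0.32), with log2 differences in brackets. CG10472 lies on 3L near the 65A group. At the other end, Phae2 was at 2.76 and 5.92 FPKM (-0.88), Sp7, a protease of the melanization cascade, at 9.97 and 14.7 FPKM (-0.52), ea, the protease that cuts the Toll ligand in the early embryo, at 36.6 and 52.0 FPKM (-0.50), CG12256 at 3.81 and 5.73 FPKM (-0.48) and Hmu at 98.6 and 114 FPKM (-0.21).

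Proteases and inhibitors with other tasks differed by list. The dorsoventral cascade had 3 tested genes, all below 0, with a median of -0.45, and its snk was at 2.79 and 4.16 FPKM. Immune and epithelial proteases had 8 of 10 tested genes above 0 and a median of 0.14, with MP1 at 30.1 and 27.1 FPKM and Np at 28.2 and 25.1 FPKM. Serpins, which inhibit such proteases, had 8 of 19 above 0 and a median of -0.04, with Spn43Aa at 292 and 300 FPKM and Spn55B at 116 and 118 FPKM. None of the genes in these 3 lists was past the size rule, where 1.02% of all tested genes were higher and 1.37% lower.

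Digestive enzymes of other classes were divided. Carbohydrases had 3 of 7 tested genes above 0 and a median of -0.01, with the maltase genes Mal-A5 at 35.7 FPKM in the library labelled knockdown, against 45.6 FPKM in the control library and Mal-A3 at 24.4 and 18.6 FPKM. Lipases had 2 of 4 above 0 and a median of 0.00, with Lip1 at 28.5 and 35.5 FPKM and Lip4 at 10.5 and 10.5 FPKM. Lysozymes had 4 of 4 above 0 and a median of 0.53, with LysX at 8.02 and 5.74 FPKM and LysD at 5.26 and 2.75 FPKM. The other 2, LysB at 1.11 and 0.518 FPKM and LysS at 1.43 and 0.628 FPKM, passed the filter only through the library labelled knockdown. The intervals of both ratios hold 1. None of these genes was past the size rule, which lists this short can easily show at the shares over all tested genes (1.02% higher and 1.37% lower).

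No gene of the midgut lists was past the size rule, where 1.02% of all tested genes were higher and 1.37% lower. All 7 midgut regulators lay above 0, where 43.5% of all tested genes did, and their median was 0.21. Their summed level was 87.7 FPKM in the library labelled knockdown, against 73.9 FPKM in the control library. GATAe, a GATA factor of the differentiating endoderm, was at 26.5 and 24.1 FPKM, a ratio of 1.10 (1.03 to 1.17), and Ptx1, a homeodomain factor of the midgut, at 14.0 and 11.1 FPKM. The ratio of the regulators' sums was 1.19 (1.15 to 1.23), and fkh, a forkhead factor of the gut, had the highest log2 difference of them (0.38). The 5 midgut markers had 1 gene above 0 and a median of -0.07, with Ance at 125 and 125 FPKM and mex1 at 113 and 98.9 FPKM. Peritrophin-15b was at 0.871 and 2.41 FPKM, a ratio of 0.361 (0.141 to 0.856) and a log2 difference of -0.87.

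Late cuticle genes had 16 of 18 above 0 (median 0.17), with a summed level of 11836 FPKM in the library labelled knockdown, against 10786 FPKM in the control library. In this list only y, a cuticle pigment gene mutant as y1 in the parental lines, was past the size rule, at 12.7 and 5.33 FPKM. Late muscle genes had 11 of 11 above 0 (median 0.13), summing to 12535 and 11666 FPKM. Maternal and early zygotic genes had 7 of 12 above 0 (median 0.04) and summed to 818 and 921 FPKM, with CycB at 376 and 510 FPKM and gcl at 95.9 and 106 FPKM. Its log2 differences ran from -0.54 for bcd, at 24.5 and 36.2 FPKM, to 0.998 for bnk, at 32.8 and 15.9 FPKM. The part of embryonic stage in the members' differences was not tested.

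Adult markers had a summed level of 46.2 FPKM in the library labelled knockdown, against 31.7 FPKM in the control library over 24 genes, 8 of them tested and 4 above 0, with a median of 0.01. Most of the sum came from Acp98AB, a male accessory gland gene, at 29.6 and 17.9 FPKM, a ratio of 1.65 (1.23 to 2.24). Acp63F, another such gene, was at 1.23 and 0.304 FPKM, a ratio of 4.04 (1.07 to 25.3). SP, the sex peptide gene of the same gland, was past the rule at 5.71 and 1.37 FPKM, on about 38 and 7 fragments. Of the 4 tested genes below 0, the accessory gland gene Acp36DE was at 0.639 and 1.20 FPKM, a ratio of 0.532 (0.368 to 0.766). The chorion gene Cp18, also below 0, was at 0.526 and 1.28 FPKM, a ratio of 0.413 (0.171 to 0.941). The chorion gene Cp19 was listed at 0 in both libraries. Larval markers summed to 12.6 and 16.0 FPKM over 15 genes, with all 3 tested genes below 0 and the glue genes Sgs5 and Sgs7 at 0 in both. With untested genes included, 7 of the 15 lay above 0 and 6 below. The untested glue gene Sgs8 went the other way from the tested genes, with 0.777 and 0 FPKM (control library second). Its log2 difference of 0.83 rests on about 8 and 0 fragments, and the interval of its ratio starts at 1.29. The larval cuticle gene Lcp4 was at 7.94 and 11.2 FPKM, and Lcp3 had 0.507 and 1.84 FPKM. The part of adult or larval tissue in the members' differences was not tested.

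**Figure D4:**
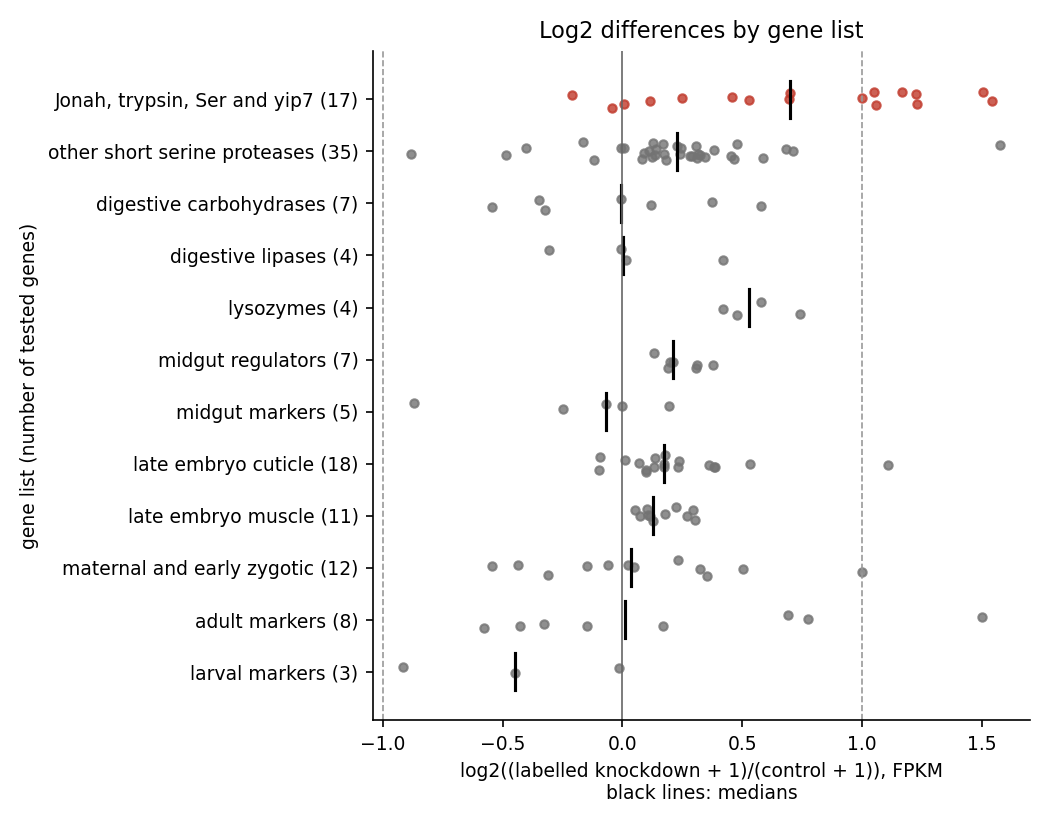
Log2 differences with 1 FPKM added (the library labelled knockdown, whose Lim3 level goes against its label, over the control library) of the tested genes of each list, 1 library per group. Points are genes, black lines are medians, and dashed lines mark the size rule. The 17 genes of the family spread from -0.21 to 1.54 with a median of 0.70, and the 7 midgut regulators lie between 0.13 and 0.38.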

How the data were processed

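Poly(A) RNA of 2 libraries, 1 per genotype, was analysed, with groups taken from the sample titles. The authors used TopHat and Cuffdiff, per the submitters' processing notes. Their deposited values are FPKM, 1 per annotated transcript, per the file headers. For settings, strand handling and genome build, the answer is not given in the sources used here. The 33887 transcripts were summed by gene identifier to 17301 genes, leaving out 365 without one. Differences are log2((knockdown + 1)/(control + 1)), which understates those of low genes. Genes needed 1 FPKM in at least 1 library, and the size rule was an absolute value of at least 1.

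FPKM times length of genes with 1 transcript piles up at the value of 1 fragment. Its density peak gave the depth and the fragments per gene, and from these exact (Clopper-Pearson) 95% intervals of ratios. They rest on an estimate and cover counting error only. The code was tested on simulated data.

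Every member at 1 FPKM or more is named. Other lists give up to 3 genes per direction past the rule, or else the 2 most abundant, and the catalogue list the 5 highest and 5 lowest log2 differences at 5 FPKM or more in either library. Members and lists were chosen with earlier results of these data known. The catalogue list, by RefSeq synonyms SP or SPH with a number up to 260 and without Sp1, skd and tyn, and the neighbour window were chosen after the values were seen. CG1304, Cp18, Cp19, Sgs5, Sgs7, Sgs8, Peritrophin-15b, fkh, bcd, bnk, Acp98AB, Acp63F, Acp36DE and the members below 1 FPKM were also named after their values were seen. The sums of lambdaTry, kappaTry and zetaTry, of alphaTry and epsilonTry, and of the members without lambdaTry were not planned. Protein and promoter comparisons were not run. Python 3.11.15, pandas 2.3.3 and SciPy 1.17.1 were used.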

Additional observations from a re-analysis of the deposited data

How the results depend on the processing

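Each library is the only sample of its group, so nothing here shows how far embryo pools differ. Against 7 members higher, the count was 1 with a pseudocount of 5 FPKM, 4 with a filter at 5 FPKM and 4 with 1 FPKM required in both libraries (added after seeing the data), and 7 to 10 under the other alternatives. It was 0 lower under each. The members' median of 0.70 was 1.28 with a pseudocount of 0.1 FPKM, 0.24 with 5 FPKM and 0.23 with no filter, where 32 members entered, and 0.46 with 1 FPKM required in both libraries. The ratio of sums, 1.52, was 1.84 after rescaling to an equal sum, 1.60 after rescaling to a median ratio of 1 and 1.77 without Jon65Aiii. These rescalings added 0.28 and 0.08 to log2 ratios. Over all genes, 108 higher and 145 lower became 177 higher and 210 lower with a pseudocount of 0.1 FPKM, 52 higher and 90 lower with 5 FPKM, 175 higher and 109 lower after rescaling to an equal sum, 188 higher and 222 lower by plain ratio, and 42 higher and 80 lower with 1 FPKM required in both libraries. No named member past the rule changed direction, but a change of pseudocount or filter cannot reverse a difference. Both rescalings only raised these values, so nothing is read from this. Below about 3 fragments, which is 0.11 FPKM in the library labelled knockdown, against 0.15 FPKM in the control library for yip7, levels cannot be told from 0. No paired analysis was possible because each group is 1 library and the labels carry no replicate numbers.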
